A study of Mus musculus with 12 samples.

Results

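Open chromatin was followed at 6 genes of the absorptive enterocyte, the lipid carriers Apoa1, Apoa4, Apoa5, Apoc3 and Fabp1 and the brush border protein Vil1. The members are the consensus peaks that overlapped 3 windows of the mm9 mouse genome. These were chr9:45990000-46090000 for the Apoa5-Apoa4-Apoc3-Apoa1 cluster, chr6:71100000-71205000 for Fabp1 and chr1:74405000-74535000 for Vil1. No mm9 annotation was used to check that the windows hold these genes, so each gene name below stands for its window. The windows held 122 of the 210325 peaks in 4 deposited lists. Where peaks of different lists overlapped by at least 1 bp or touched, they were merged, which gave 48 of 82365 regions: 13 in the apolipoprotein window, 18 in the Fabp1 window and 17 in the Vil1 window.

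The lists came from Omni-ATAC-seq, an assay in which the transposase Tn5 inserts adapters into accessible DNA, on intestinal epithelial cells of C57Bl/6 mice. Every population carried a Sox9EGFP reporter and was sorted on it into Sox9 Negative, Sox9 Sublow, Sox9 Low or Sox9 High. Each had 3 libraries, which the authors combined and deposited as a single consensus list for each sort. In earlier work with such a reporter, Negative sorts were rich in differentiated cells, Sublow sorts in dividing progenitors, Low sorts in crypt base stem cells and High sorts in enteroendocrine and other secretory cells. The reporter reads out Sox9 and not a cell type, so each sort can mix types, and the labels do not say whether libraries were from separate animals. The labelled cell types were not checked against marker genes, because no mm9 gene positions were used here.

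Absorptive enterocytes line the villus, take up dietary fat and cholesterol and pack them into chylomicrons. Apoa4 and Apoa1 code for apolipoproteins that enterocytes and liver secrete, Apoa1 being the main protein of high-density lipoprotein. Apoc3 inhibits and Apoa5 promotes the clearance of triglyceride by lipoprotein lipase, and Apoa5 is made mainly in the liver. Fabp1 codes for a fatty acid binding protein of the cytosol in liver and proximal gut. Vil1 codes for villin, which bundles actin in microvilli and is made in crypt and villus epithelium alike. The Apoc3-Apoa4 interval is known for an enhancer with binding sites for the nuclear receptor HNF4A that serves several genes of the cluster in the intestine. In the RefSeq gene table (GRCm38.p6), the 4 apolipoprotein genes stand side by side in the order Apoa1, Apoc3, Apoa4 and Apoa5, between the coding genes Sik3 and Zpr1. Fabp1 stands between Thnsl2 and Smyd1, and Vil1 between Ctdsp1 and Usp37, so peaks of a window may belong to those neighbours.

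The 250 bases before the start of 1 gene per window are shown to put a sequence beside each locus. They are RefSeq promoters on GRCm38.p6, all on the plus strand: chr6:71199629-71199878 for Fabp1, chr9:46240594-46240843 for Apoa4 and chr1:74409134-74409383 for Vil1. This build differs from the mm9 build of the peaks, so these positions cannot be set against the peak positions below, and whether a peak covers a promoter was not analysed here. Capitals mark matches on either strand to TATAAA (the TATA box), TTTATNG (the intestinal factor CDX2) and CCACCC (KLF factors).
Fabp1: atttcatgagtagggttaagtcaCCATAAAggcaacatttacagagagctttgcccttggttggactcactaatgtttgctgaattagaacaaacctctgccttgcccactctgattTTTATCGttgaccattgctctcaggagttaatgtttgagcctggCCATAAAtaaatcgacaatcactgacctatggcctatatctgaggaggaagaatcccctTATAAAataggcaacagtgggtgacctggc
Apoa4: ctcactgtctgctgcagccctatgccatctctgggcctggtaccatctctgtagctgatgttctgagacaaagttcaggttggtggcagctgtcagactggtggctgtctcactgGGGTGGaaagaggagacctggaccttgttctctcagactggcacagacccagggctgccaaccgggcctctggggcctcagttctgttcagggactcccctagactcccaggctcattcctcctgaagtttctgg
Vil1: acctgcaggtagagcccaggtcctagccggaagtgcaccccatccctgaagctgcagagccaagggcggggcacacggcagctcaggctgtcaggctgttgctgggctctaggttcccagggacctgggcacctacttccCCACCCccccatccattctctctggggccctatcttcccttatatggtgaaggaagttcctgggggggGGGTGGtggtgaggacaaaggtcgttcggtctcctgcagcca
The Fabp1 promoter held 3 CDX2 matches, whose first bases lay 227, 133 and 89 bases before the start, and a TATA box 30 bases before it. Of the 32851 promoters of 300 bases in the table, which reach 50 bases past the start, 10.9% held the CDX2 letters and 13.6% the TATA letters. No other member's promoter held the CDX2 letters, and Apoa5 was the other one with the TATA letters. The KLF letters were in the promoters of Apoa1, Apoa4, Apoa5 and Vil1 and in 31.5% of all promoters. No member's promoter held the HNF4A letters CAAAGTCCA, which were in 0.475% of all promoters, or those of a nuclear receptor direct repeat, CAAAGGTCA, in 0.478%. None held the binding letters of GATA factors, AGATAA, present in 11.2%, or the HNF1 site, present in 0.00913%. This says only that these letters were not in these 300 bases. Both strands were searched. The letters CTATAAA would match both TATA and CDX2, and no such overlap occurred in Fabp1. Promoters were found for 5 of the 6 genes, with 2 starts for Apoa5 and none for Apoc3.

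The lists as wholes set the scale for the loci. Negative was the shortest list with 45461 peaks, against 52113 in Sublow, 58356 in Low and 54395 in High. Negative peaks covered 21.5 Mb, Sublow 28.7 Mb, Low 30.1 Mb and High 25.9 Mb. The lists give no score, read count or value per library, so depth is unknown and no value below has a replicate error or a test. A region missing from a list had no consensus peak there, which does not show that the DNA was closed. Fewer cells with an open site and less opening per cell cannot be told apart in such lists.

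At the apolipoprotein genes and at Fabp1 the Negative list, the shortest over the genome, was the fullest, and the High list was the emptiest. Vil1 differed, with nearly the same peaks in all 4 lists. The apolipoprotein window held 12 Negative peaks, 8 Sublow, 8 Low and 4 High. The Fabp1 window held 13 Negative, 8 Sublow, 7 Low and 6 High peaks. With that window narrowed by 10 kb on each side, Sublow, Low and High tied at 6 peaks each. The Vil1 window held 15 Negative, 13 Sublow, 14 Low and 14 High peaks. Negative peaks were thus 3 times as many as High peaks at the apolipoprotein genes, 2.17 times at Fabp1 and 1.07 times at Vil1, against 0.836 times over the genome. Against Low the ratios were 1.5, 1.86 and 1.07, with 0.779 over the genome.

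**Figure D1:**
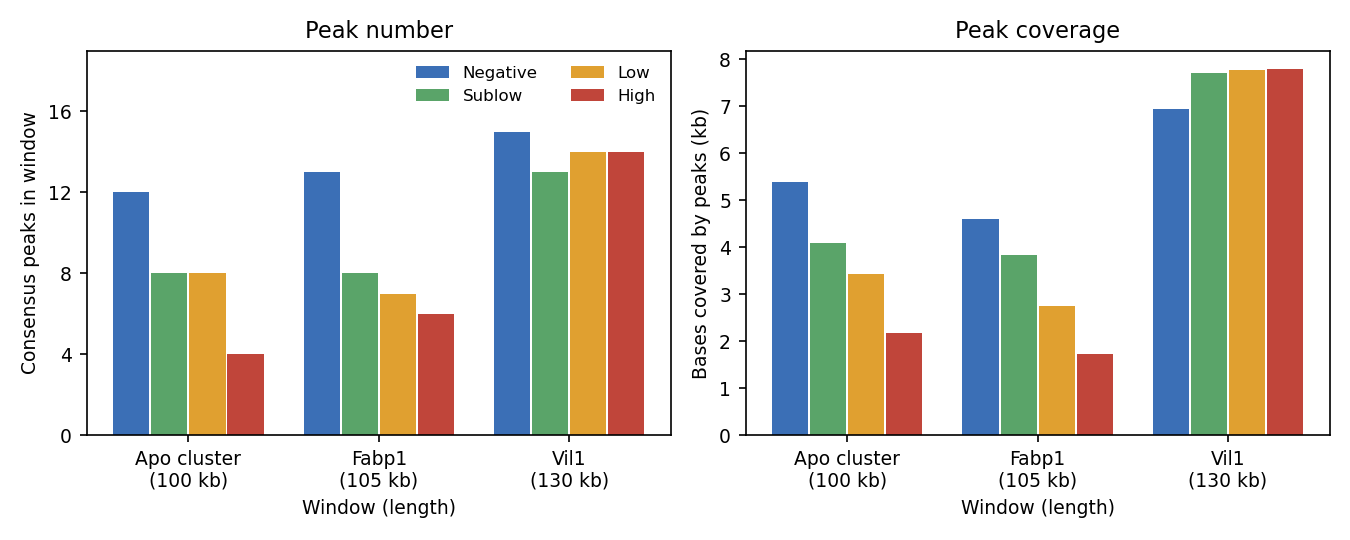
Number of consensus peaks (left) and kilobases covered by them (right) in each window, with 1 bar per population list. Bars have no error because each population is 1 list. At the apolipoprotein and Fabp1 windows Negative stands highest and High lowest, while at Vil1 they lie between 13 and 15 peaks.

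Bases covered also put Negative first and High last at the lipid genes. They set Sublow above Low at both loci, although these lists tied in peak number at the apolipoprotein genes. Peaks covered 5.38 kb of the apolipoprotein window in Negative, 4.09 kb in Sublow, 3.44 kb in Low and 2.17 kb in High. At Fabp1 they covered 4.61 kb in Negative, 3.83 kb in Sublow, 2.75 kb in Low and 1.73 kb in High. Coverage therefore fell at each step of the reporter order at both loci, and Negative covered 2.48 and 2.66 times as many bases as High, against 0.831 times over the genome. At Vil1 Negative covered the least, 6.93 kb, against 7.70 kb in Sublow, 7.77 kb in Low and 7.79 kb in High. Its ratio to High of 0.889 was near the 0.831 of the genome. Its ratios to Sublow and Low, 0.900 and 0.891, were above the 0.752 and 0.715 of the genome.

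The windows were also set beside all stretches of their length on a fixed grid that held a peak of any list, as a description of the genome and not a test. Of 15364 stretches as long as the apolipoprotein window, 34 (0.221%) had at least 8 more Negative than High peaks, as that window had, and the median difference was -1. Of 14789 stretches as long as the Fabp1 window, 71 (0.480%) had at least its 7 more Negative than High peaks. For Vil1, 3260 of 12526 (26.0%) had at least its 1 more. All 3 windows were dense in Negative peaks: 353 of 15364 stretches held as many as the apolipoprotein window, 1.86% as many as the Fabp1 window and 1.88% as many as the Vil1 window. Vil1 was also dense in High peaks, with 2.77% of stretches reaching its 14, and the apolipoprotein window was not, with 39.9% reaching its 4.

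**Figure D2:**
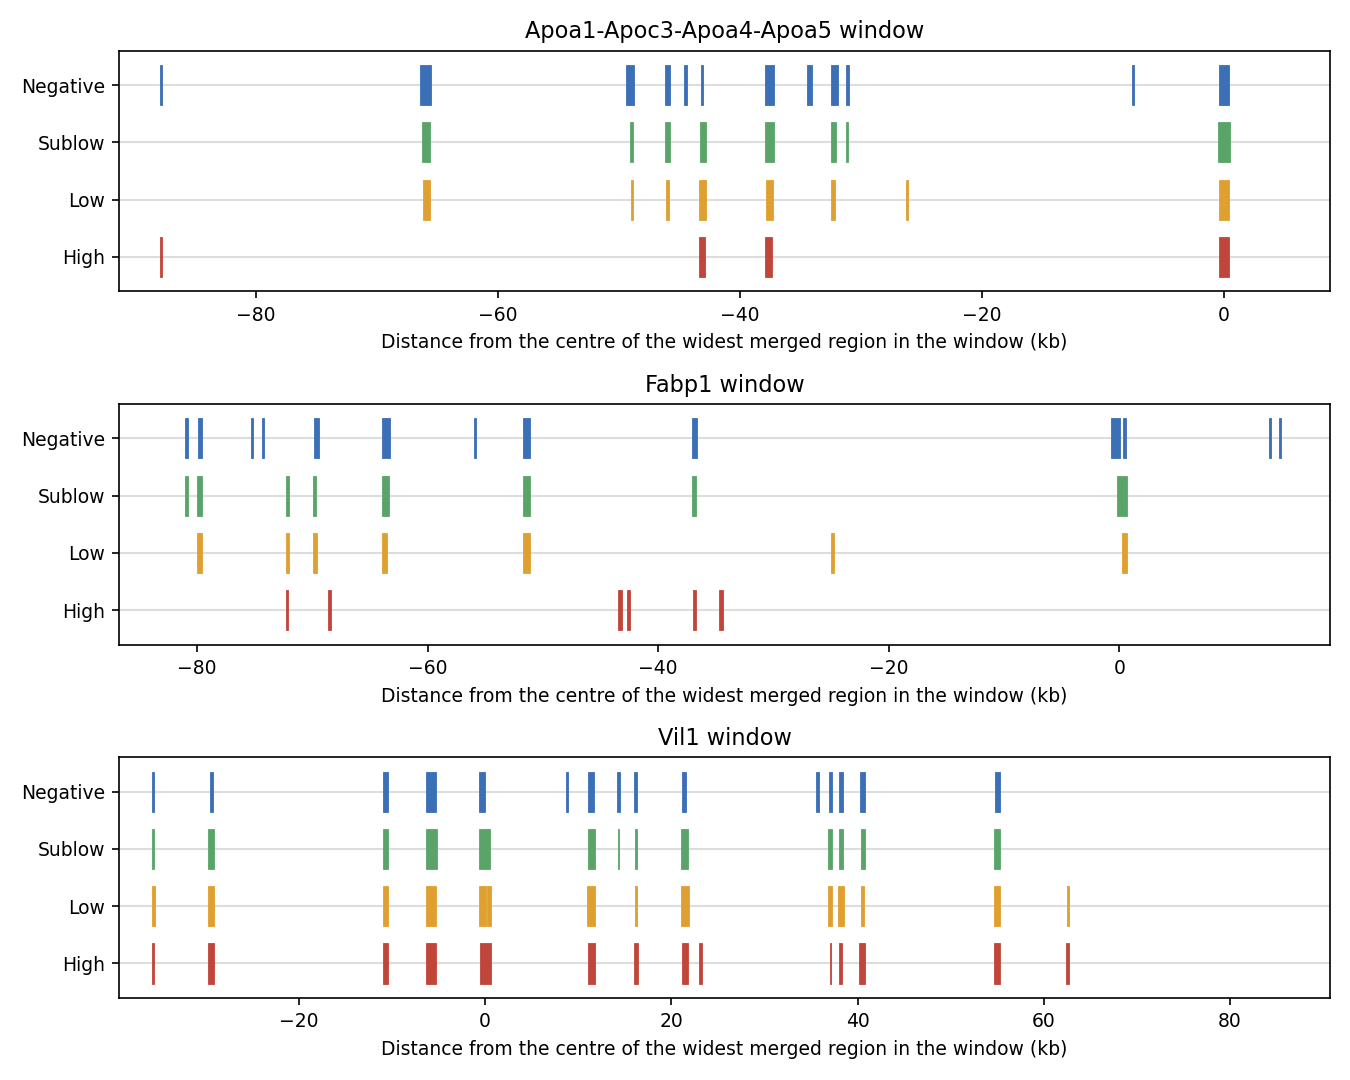
Peaks of each population list in the 3 windows, drawn to scale. The horizontal axis is the distance in kb from the centre of the widest merged region of the window. Most peaks line up in all 4 rows at Vil1, whereas the High row is nearly empty over the apolipoprotein genes and holds peaks at other places in the Fabp1 window.

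At the apolipoprotein genes nearly every region listed in any population had a Negative peak. Of the 13 regions, Negative held 12, Sublow 8, Low 8 and High 4, while over all 82365 regions Negative held 53.9%, Sublow 62.8%, Low 69.8% and High 65.1%. Negative held 8 regions that High lacked (19.2% over the genome), and High held none that Negative lacked (30.4%). High also held 4 of the 12 Negative regions here, where over the genome it held 64.3% of them. With each window narrowed by 10 kb on both sides High held 2 regions, and with the widest peaks of each list, in lists of equal length, Low held 5. With a reciprocal overlap of 50%, High held 1 region that Negative lacked and Negative alone held 5.

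Regions missing from High alone numbered 4 of 13 (8.92% of all regions). Their median merged width was 599 bp, against 455 bp for this pattern over the genome. They lay at chr9:46014871-46015713, chr9:46031891-46032511, chr9:46035068-46035509 and chr9:46048767-46049343. At the first, the Negative, Sublow and Low peaks were 843, 696 and 550 bp wide. At the second they were 621, 269 and 199 bp, so the Negative peak was 3.12 times as wide as the Low peak. The other two were widest in Negative as well. The third had 435 bp for Negative, 425 bp for Sublow and 247 bp for Low, and the fourth had 571, 443 and 319 bp in the same order. The Negative peak was thus the widest in 4 of 4 such regions, against 25.9% of the 7165 such regions over the genome with 1 peak per holding list. Width fell from Negative to Sublow to Low in 5 of the 7 regions with 1 peak in each of these lists, against 10.8% over the genome. Only the width count for regions held by all 4 lists was planned, and it is given below. The count of falling widths was chosen after the widths were seen.

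Further regions of the cluster were found in Negative alone or in Negative with its nearest neighbour by reporter level. Negative alone held 3 of 13 (6.82% over the genome), of 274 bp at chr9:46036648-46036921, 394 bp at chr9:46046808-46047201 and 185 bp at chr9:46073637-46073821. Negative and Sublow only shared chr9:46049992-46050271 (3.17% of all regions have this pattern), with 220 bp in Negative and 172 bp in Sublow. One region broke the order of reporter levels (2.20% over the genome): chr9:45993375-45993541 had 160 bp in Negative and 161 bp in High and no peak in Sublow or Low. Low alone held 1 region (6.41%), of 162 bp at chr9:46055004-46055165. Within the stretch from 46031891 to 46050271, where these regions lie closest, High had peaks at only 2 regions.

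The regions common to all populations did not follow 1 pattern of width. All 4 lists held 3 of the 13 regions (33.1% over the genome). The Negative peak was the widest in 1 of these 3, against 8.70% of such regions over the genome. In the order Negative, Sublow, Low and High, widths at chr9:46043340-46044053 were near each other at 707, 684, 621 and 602 bp. At chr9:46080788-46081740 they were 782, 953, 828 and 865 bp, widest in Sublow. The region at chr9:46037873-46038455 ran the other way from the 4 regions missing from High alone: its widths rose along the same order, from 188 bp through 449 and 519 bp to 539 bp. The Negative peak there was 0.35 times as wide as the High peak, the lowest of the 4 ratios between Negative and High in this window.

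**Figure D3:**
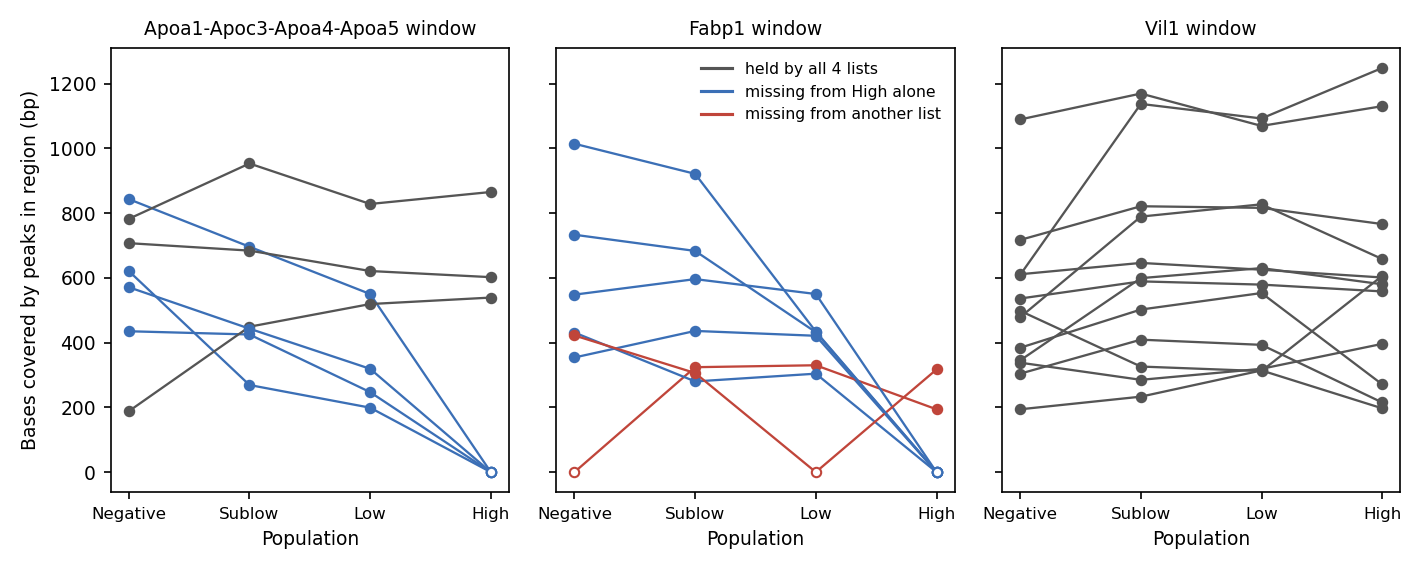
Bases covered by peaks (bp) in each merged region held by at least 3 lists, 1 line per region, with populations in reporter order. Open circles at 0 mark no listed peak. The blue lines at the apolipoprotein window fall from Negative to Low and are missing from High, and the lines of the Vil1 window stay above 0 throughout.

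At Fabp1 the Negative and High lists had 1 region in common. Of 18 regions, Negative held 12 (66.7%, against 53.9% over the genome), Sublow 8 (44.4%, against 62.8%), Low 7 (38.9%, against 69.8%) and High 6 (33.3%, against 65.1%). With peaks of at least 200 bp Negative and Sublow held 8 each, so the lead of Negative in regions rested on narrower peaks. The region in both Negative and High was 1 of 12 Negative regions (64.3% over the genome) and 1 of 6 High regions (53.3%). Negative held 11 that High lacked (61.1% of the 18, against 19.2% over the genome). High held 5 that Negative lacked, a share of 27.8% near the 30.4% of the genome. The 11 became 7 with peaks of at least 200 bp and 7 with the narrowed window. No region was in all 4 lists, against 33.1% over the genome.

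The widest merged region of the Fabp1 window spanned 1380 bp at chr6:71186050-71187429. It was 1 of 5 missing from High alone (27.8% of the 18 regions, against 8.92% over the genome). Its extent differed among the lists. Negative had peaks at 71186050-71186841 and 71187062-71187283, Sublow had 1 peak at 71186509-71187429 and Low had 1 peak at 71186972-71187405. The first Negative peak did not reach the Low peak and was joined to it through the Sublow peak. With a reciprocal overlap of 50%, Negative alone held 6 regions of this window rather than 5. It then held 12 rather than 11 that High lacked. Peaks covered 1014 bp there in the Negative list, 921 bp in the Sublow list and 434 bp in the Low list, and 222 bp were common to these 3 lists. The lower-coordinate part was therefore listed in Negative and, in part, in Sublow, and the far end in Sublow and Low.

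The other regions of Fabp1 missing from High alone varied in width. At chr6:71122739-71123473 the Negative, Sublow and Low peaks were 733, 683 and 432 bp wide. At chr6:71116784-71117276 they were 431, 280 and 304 bp. Negative was the widest at both. It was the narrowest at chr6:71106701-71107136, where the same lists had 354, 436 and 421 bp, and at chr6:71135003-71135603, where they had 548, 596 and 550 bp. Negative was thus the widest in 2 of these 4 regions, against 25.9% over the genome. Width fell from Negative to Sublow to Low in 1 of the 4, against 10.8% over the genome.

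The single region that Negative and High had in common at Fabp1 was chr6:71149658-71150079, which Low lacked. The Negative, Sublow and High peaks were 422, 306 and 317 bp wide, and it was the only region of this window that broke the reporter order. The reverse case, missing from Negative alone, was chr6:71114423-71114752 (1 of 18, 7.49% over the genome). Its Sublow, Low and High peaks were 324, 330 and 194 bp wide. Negative and Sublow only held chr6:71105648-71105954, with 295 and 284 bp.

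Regions held by 1 list alone made up 10 of the 18 at Fabp1, against 31.9% over the genome. Negative alone held 5 (6.82% over the genome): chr6:71111437-71111557 (121 bp), chr6:71112368-71112523 (156 bp), chr6:71130728-71130932 (205 bp), chr6:71199716-71199868 (153 bp) and chr6:71200601-71200774 (174 bp). Only 1 of these was at least 200 bp wide, and their median of 156 bp was under the 201 bp of regions that Negative alone held over the genome. Within the narrowed window Negative alone held 3. High alone held 4 (16.6% over the genome): chr6:71118085-71118317 (233 bp), chr6:71143233-71143630 (398 bp), chr6:71144020-71144288 (269 bp) and chr6:71152033-71152352 (320 bp). The last 3 of these lay on both sides of the region that Negative and High shared. Regions that High alone held over the genome had a median of 245 bp, which the first of the 4 did not reach. Low alone held chr6:71161708-71161987, of 280 bp.

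**Figure D4:**
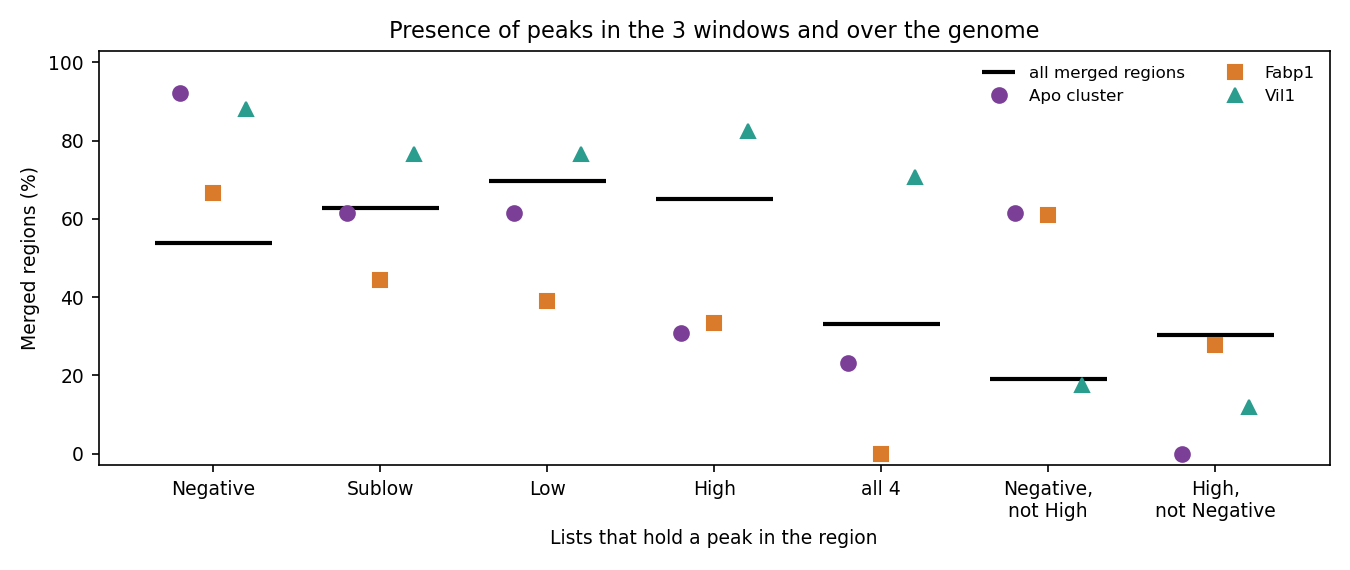
Share of merged regions (%) in which the named lists hold a peak, for the 13 apolipoprotein, 18 Fabp1 and 17 Vil1 regions (symbols) and for all 82365 regions (black bars). The apolipoprotein and Fabp1 symbols stand above the bar for Negative without High, at 61.5% and 61.1%, and Vil1 stands at 17.6%, near the bar at 19.2%.

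At Vil1 most open regions were common to all populations. All 4 lists held 12 of the 17 regions, 70.6% against 33.1% over the genome. Negative held 15 (88.2%, against 53.9% over the genome), Sublow 13 (76.5%, against 62.8%), Low 13 (76.5%, against 69.8%) and High 14 (82.4%, against 65.1%). High also held 12 of the 15 Negative regions, 80.0% against 64.3% over the genome. Negative held 3 that High lacked, 17.6% against 19.2% over the genome, and High held 2 that Negative lacked, 11.8% against 30.4%. None broke the reporter order (2.20% over the genome).

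Some of the wide Vil1 regions were of like width in every list. Taking the lists in the order Negative, Sublow, Low and High, chr1:74437894-74439088 had peaks of 1089, 1169, 1069 and 1130 bp. At chr1:74455260-74456099 the peaks were 717, 821, 816 and 766 bp wide. The lists stood close at both. At chr1:74498946-74499632 they were also close, from 601 bp in High to 646 bp in Sublow.

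Other Vil1 regions were shorter in Negative. The widest region, chr1:74443643-74444931, was covered over 609 bp by Negative, 1137 bp by Sublow, 1092 bp by 2 Low peaks and 1248 bp by High, and 586 bp were common to all lists. At chr1:74465307-74466176 the Negative peak was 478 bp wide, and the Sublow, Low and High peaks were 789, 827 and 658 bp. At chr1:74414521-74415150 the Negative peak was 345 bp wide, and the other lists had 599, 630 and 580 bp. These 3 regions were the ones where Negative was narrowest against Sublow.

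Of the 11 Vil1 regions with 1 peak in each list, the widest peak was from Sublow in 5, Low in 4, High in 2 and Negative in none. Over the 25643 such regions of the genome it was from Sublow in 38.1%, Low in 33.0%, High in 18.8% and Negative in 8.70%. The Vil1 regions thus had the order of widths of the genome. The neighbouring regions chr1:74481107-74481520 and chr1:74482224-74482776 were narrowest in High, at 215 and 271 bp. Their Negative widths were 304 and 384 bp, and those of Sublow and Low lay between 393 and 553 bp. At the next region, chr1:74484457-74485062, the ends of the reporter range were the wider ones, with 498 bp for Negative and 606 bp for High against 326 bp for Sublow and 312 bp for Low.

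Of the remaining shared regions, chr1:74433264-74433852 was even, from 536 bp in Negative to 589 bp in Sublow. The region chr1:74408463-74408776 was widest in Low, at 314 bp, with 194, 233 and 197 bp in Negative, Sublow and High. At chr1:74460266-74460661 High had the widest peak, of 396 bp, and Sublow the narrowest, of 285 bp.

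Few Vil1 regions belonged to part of the populations. Negative alone held chr1:74452954-74453164 (211 bp) and chr1:74479847-74480121 (275 bp), 11.8% of the Vil1 regions against 6.82% over the genome. Negative and Sublow only shared chr1:74458435-74458773 (5.88%, against 3.17% over the genome), with 339 bp in Negative and 196 bp in Sublow. High alone held chr1:74467299-74467564 (266 bp), 5.88% against 16.6% over the genome. Low and High only shared chr1:74506708-74507021 (5.98% of all regions have this pattern), with 243 and 303 bp.

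Median width ratios within shared regions differed among the loci. The medians against Low, Sublow and High rest on different sets of regions, so they cannot be compared with each other directly. The median log2 ratio of Negative to Low width, over regions with 1 peak in each, was 0.62 in the 7 apolipoprotein regions, 0.25 in the 4 Fabp1 regions and -0.19 in the 11 Vil1 regions. Over 33749 such regions of the genome it was -0.20. The single values ran from -1.47 to 1.64 at the apolipoprotein genes, from -0.25 to 0.76 at Fabp1 and from -0.87 to 0.67 at Vil1, so the ranges of the loci overlapped. The Negative peak was wider than the Low peak in 5 of 7, 2 of 4 and 3 of 11 regions, against 24.9% over the genome. Negative to Sublow ratios had medians of 0.16 in 8, 0.08 in 6 and -0.20 in 13 regions, with -0.21 over the genome. Negative to High ratios had a median of -0.08 in the 4 apolipoprotein regions that both lists held, where Negative was wider in 1, and of -0.08 in 12 Vil1 regions, against -0.09 over the genome. At Fabp1 the 1 region of both lists had a ratio of 0.41. In regions that both lists held, Negative peaks of the apolipoprotein window were thus not wider than High peaks at the median. The same held against Low in the 3 apolipoprotein regions of all 4 lists, where the Negative to Low ratios were -1.47, 0.19 and -0.08. In the 4 regions missing from High alone these ratios ran from 0.62 to 1.64, and those regions have no ratio to High.

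Over the 3 windows together, Negative held 39 of 48 regions (81.2%, against 53.9% over the genome), Sublow 29 (60.4%, against 62.8%), Low 28 (58.3%, against 69.8%) and High 24 (50%, against 65.1%). Negative held 15 regions that Low lacked (11.2% over the genome) and lacked 4 that Low held (27.1%). Of the 17 regions in 1 list alone, 10 were from Negative, 20.8% of the 48 regions against 6.82% over the genome. High had 5 (10.4%, against 16.6%), Low had 2 (4.17%, against 6.41%) and Sublow none (2.06% over the genome). Regions of 1 window lie near each other and are not replicates, so these counts describe the loci.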

How the data were processed

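Omni-ATAC-seq libraries of 4 sorted populations (12 libraries, 3 per population) are represented by 1 consensus peak list per population. Per the submitters' processing notes, the tools named are MACS2 2.1.2, Bowtie2 2.3.4, deepTools 2.5.2, Trim Galore 0.4.3 and Picard 2.10.3 on mm9, listed here in no order. Settings, any Tn5 shift of cut positions and the rule that combined libraries are not given in the sources used here. Each file the authors deposited holds the chromosome, start, end and name of each peak, with positions in base pairs and no score. The label of each library gives 12000 cells collected per population. Depth is unknown and no interval was computed.

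Some peaks had a start equal to their end, so positions were read as counted from 1 with the end included. Peaks of different lists with an overlap of 1 bp or more, or that touched, were joined, and each region was described by the lists with a peak in it. A peak or region belonged to a window when it overlapped it. Stretches of window length were counted by peak midpoints. No test was made, since each population has 1 list, and shares over all merged regions stand beside the counts. The 6 genes, the windows and the lists were chosen with earlier results of these data known. Within each window the naming rule took the 5 widest regions of all 4 lists, each region of 1 list, each missing from 1 list and each breaking the order Negative, Sublow, Low, High. The other regions were named after their values were seen. Other lipid and brush border genes were not analysed here, since no mm9 annotation was used. Merging was run on 5000 simulated regions, of which 100% received the right pattern. By design their peaks always overlapped, each list had at most 1 peak per region and the regions lay apart. The run therefore checked the code only, and not how merging treats close regions or several peaks of 1 list. Python 3.11.15, numpy 2.4.6 and matplotlib 3.10.9 were used.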

Additional observations from a re-analysis of the deposited data

How the results depend on the processing

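No paired analysis was possible because the deposited lists pool the libraries of a sort, so neither a replicate block nor leaving out a replicate could be run. Of the recomputed counts, 176 stayed within 1.5 times the reported value and 13 did not. With the widest 45461 peaks of each list, Low had 5 peaks in 5 regions of the apolipoprotein window and Negative alone held 5 regions there. With windows narrowed by 10 kb on each side, High had 2 peaks in 2 regions over 1141 bp at the apolipoprotein genes. At Fabp1 Negative then held 7 regions that High lacked and 3 of its own. With a reciprocal overlap of 50%, Negative alone held 5 apolipoprotein regions and High held 1 that Negative lacked. With peaks of at least 200 bp, High again held 1 such region there. At Fabp1, Negative alone then held 1 region, and 7 were in Negative and not in High, and Negative and Sublow tied at 8 regions held. Merging peaks up to 500 bp apart moved no count past 1.5 times. Negative had the most peaks and bases, and High the fewest bases, at the apolipoprotein and Fabp1 windows under each of the 3 settings that changed them. In the narrowed Fabp1 window Negative had 9 peaks in 8 regions, and Sublow, Low and High each had 6 peaks in 6 regions. High was thus not lowest in number there. The alternatives for other genes were not run. Depth is unknown, so whether a missing region was closed or missed cannot be told apart.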
